A study of Mus musculus with 20 samples.

Results

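The Slc25 genes encode the mitochondrial carriers, the family of transporters that move nucleotides, phosphate, metabolites, amino acids and cofactors across the inner mitochondrial membrane. The members were all mouse genes whose symbol on the array starts with Slc25a, apart from Slc25a37, and each was read from its brightest probe set (the group of short probes that together read 1 transcript) among those assigned to 1 symbol only. This gave 43 genes of the 18193 genes measured, and 35 of them lay above the expression filter, a mean log2 level over all arrays of 6.93, which 12082 genes passed. The selection used no difference between groups.

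Total RNA from the heart ventricle of female C57BL/6 mice was hybridised to 20 Affymetrix arrays, 5 in each of 4 groups. All mice had been ovariectomized at 8 weeks of age, which takes away most of the body's own estrogen, and all carried an Alzet minipump, an implanted osmotic pump, for 4 weeks. The placebo group, titled OVX, received the solution without hormone. The estrogens were cyclodextrinated, that is, steroids made soluble with cyclodextrin. The E2 group received 17 beta estradiol, the natural hormone that activates both estrogen receptors. The LE2 group, titled alpha, received 16 alpha LE2, an agonist of estrogen receptor alpha according to the labels. The fourth group is titled beta, while its treatment label names a control solution. It is called the beta-titled group here and was kept apart from placebo, because the labels do not settle what it received. No group with intact ovaries was analysed here. The labels state no dose, so the compounds are set side by side at a matched time and at unknown relative dose. The labels do not say whether each array came from a different mouse, so the p-values measure the spread between these samples.

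Mitochondria make ATP in the matrix, and heart muscle spends it in the cytosol, so both the ATP and its raw materials must cross the inner membrane. The ADP/ATP carriers exchange spent ADP for new ATP, the phosphate carrier brings in the phosphate that ATP synthase uses, and the carnitine/acylcarnitine carrier admits the fatty acids that are the main fuel of the adult heart. Other members serve the malate-aspartate shuttle, the supply of cofactors and the control of calcium-dependent adenine nucleotide content. The study's title concerns estrogen receptor alpha and glucose uptake in the heart, and the comparisons below ask whether carrier transcripts differed between the groups.

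No carrier passed the test in any of the 6 comparisons between the 4 groups. The test was limma's moderated test on all 12082 genes, with a Benjamini-Hochberg adjusted p under 0.05. In LE2 against placebo 0 of 35 carriers passed, where 0.223% of all genes tested did, and 1 carrier had an unadjusted p under 0.05, where 9.01% of all genes did. In E2 against placebo 0 of 35 carriers and 0% of all genes passed, with 5 carriers and 9.63% of all genes at an unadjusted p under 0.05. In the beta-titled group against placebo 0 of 35 carriers and 0% of all genes passed, and 3 carriers and 5.7% of all genes had an unadjusted p under 0.05. These 3 comparisons share the same placebo arrays and are not independent of each other. Between the groups other than placebo, 0 carriers passed in LE2 against E2 (0.0166% of all genes; 2 carriers and 5.19% of all genes at an unadjusted p under 0.05). The counts were 0 carriers in LE2 against the beta-titled group (0.174% of all genes; 2 carriers and 5.6% of all genes unadjusted) and 0 in E2 against the beta-titled group (0% of all genes; 2 carriers and 3.83% of all genes unadjusted). In limma's F test over the 4 groups, 0 carriers and 0.157% of all genes passed, and 1 carrier, Slc25a5, and 6.32% of all genes had an unadjusted p under 0.05. The limma adjusted p of Slc25a5 in that F test was 0.686.

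The changes that the data allow were small for most carriers. The 95% confidence interval of a carrier's change had a median half-width of 0.20 on the log2 scale. In each comparison with placebo, the whole interval lay within 1.5-fold for 33 of the 35 carriers. The exceptions were Slc25a46 and Slc25a33 for LE2 and for the beta-titled group, and Slc25a46 and Slc25a34 for E2. In each of the 3 comparisons that leave out placebo, the interval lay within 1.5-fold for 34 of 35 carriers, with Slc25a33 as the exception. Such an interval bounds a difference and does not show that the groups were equal. It holds only for the probe set that stood for the gene. A dimmer probe set of Slc25a4, described below, had an interval in E2 that reached beyond 1.5-fold.

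**Figure D1:**
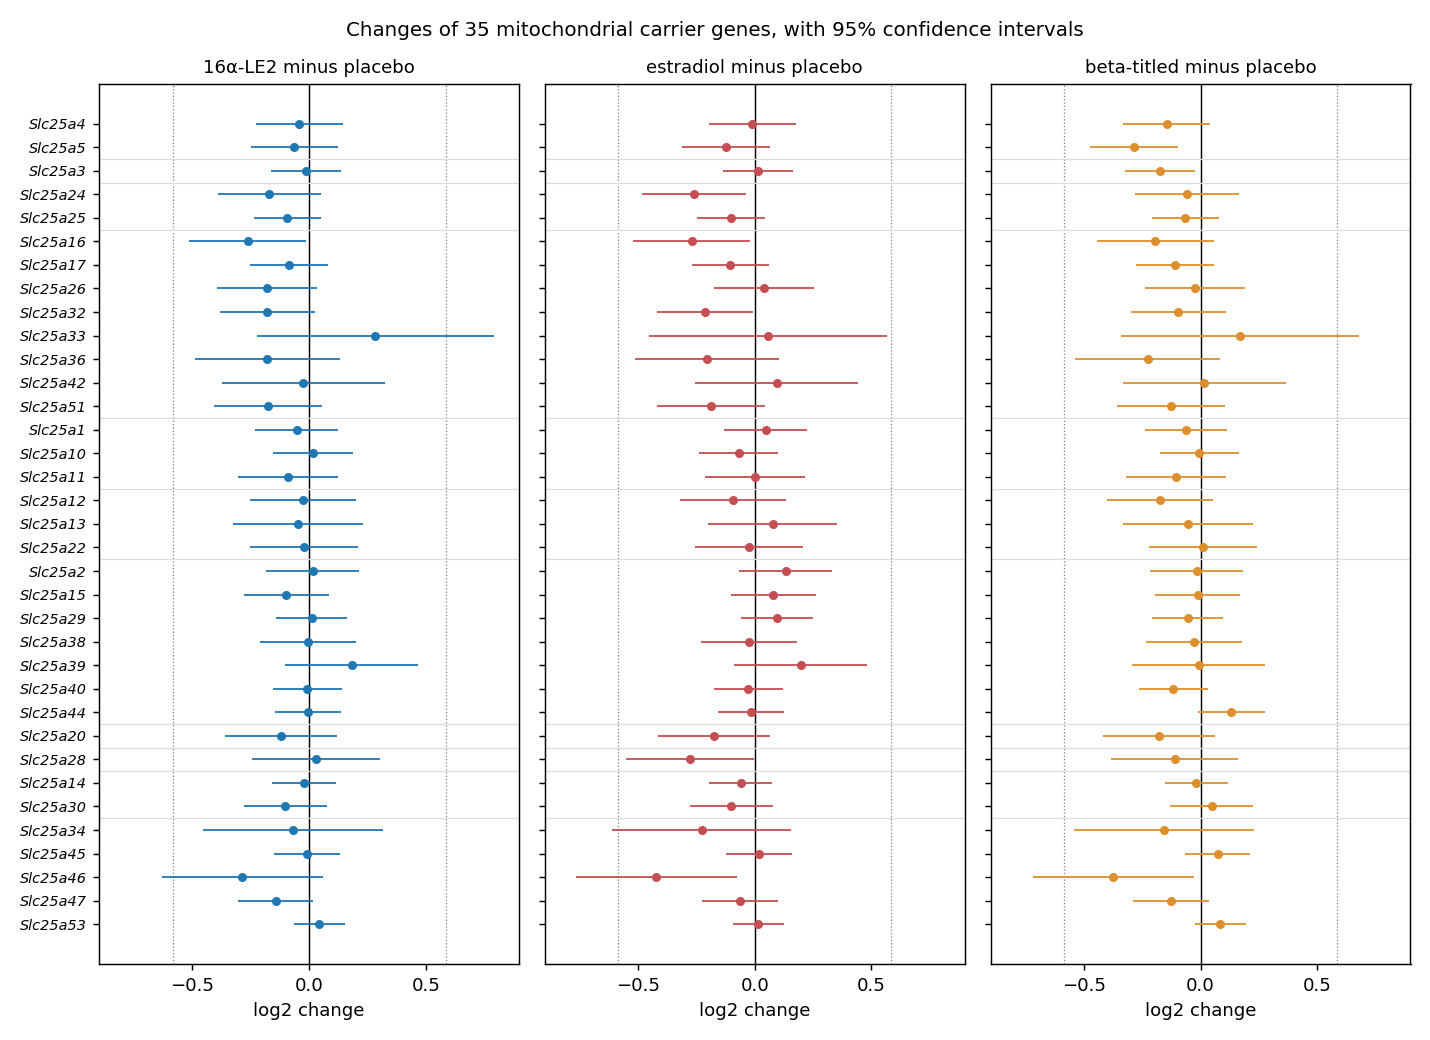
Log2 change from placebo of the 35 carriers above the filter in LE2, E2 and the beta-titled group (points, with 95% confidence intervals from limma as bars; dotted lines at 1.5-fold in either direction). The changes lie between -0.42 and 0.28, and most intervals stay inside the dotted lines.

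Most of the small differences from placebo were negative, for carriers and for genes at large. In LE2, 28 of 35 carriers lay below placebo, where 59.7% of all genes did, and the median change was -0.05 for carriers and -0.03 for all genes. In E2, 22 carriers lay below placebo, where 57.1% of all genes did, and both medians were -0.03. In the beta-titled group, 28 carriers lay below placebo, where 62.6% of all genes did, with medians of -0.06 and -0.04. This split depended on how the arrays were scaled in LE2 and the beta-titled group, and little in E2. Quantile normalization gives all arrays the same distribution of values. After it, 19 of 35 carriers lay below placebo in LE2, 21 in E2 and 16 in the beta-titled group. That is 54.3%, 60% and 45.7% of carriers, where 44.2%, 49.6% and 47.4% of all genes did. The median change of carriers was within 0.02 of 0 in each. The median of all genes moved by 0.04, 0.03 and 0.04 with that scaling. Between the other groups, 14 of 35 carriers were lower in LE2 than in E2 (56.3% of all genes), 15 in LE2 than in the beta-titled group (48.1%) and 16 in E2 than in the beta-titled group (40.6%), with carrier medians of 0.01, 0.01 and 0.00. With quantile normalization, the sign of the change from placebo was kept by 24 carriers in LE2, 32 in E2 and 23 in the beta-titled group.

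A few arrays stood apart, and the carriers moved with them. Arrays correlated with each other at a Spearman coefficient of 0.978 to 0.992, except E2 replicate 33, whose correlations were 0.922 to 0.940. The standard deviation of all values of an array ran from 1.30 to 1.48, and was lowest in beta-titled replicates 32 and 31 and E2 replicate 33. The median deviation of the 35 carriers from their own means was -0.21 in E2 replicate 33, -0.19 in beta-titled replicate 32, -0.09 in beta-titled replicate 31 and 0.13 in placebo replicate 33. In the other 16 arrays it lay between -0.04 and 0.06. After quantile normalization it stayed at -0.17 in E2 replicate 33, and was -0.04 and -0.01 in the beta-titled pair and 0.02 in placebo replicate 33. E2 replicate 33 held the lowest value of the 20 arrays for 15 of 35 carriers, 42.9%, and for 34.4% of all genes. Beta-titled replicate 32 did so for 9 carriers, 25.7%, and for 13.5% of all genes. Without E2 replicate 33, 0 carriers had an unadjusted p under 0.05 in E2 against placebo, in place of 5, and 19 of 35 lay below placebo. Without the 3 arrays of lowest spread, 0 carriers had one in the beta-titled group against placebo, in place of 3, and 19 lay below placebo. Over all 12082 genes the number with an unadjusted p under 0.05 also fell in these comparisons, from 1163 to 598 for E2 and from 689 to 135 for the beta-titled group. Counts rose in LE2 against placebo. There, 3 carriers had such a p without E2 replicate 33 and 5 without the 3 arrays, in place of 1. All genes with such a p went from 1088 to 1562 and 1856. In the beta-titled group against placebo, leaving out E2 replicate 33 alone raised the carriers from 3 to 5 and all genes from 689 to 1269. No carrier passed in either fit, and the part of RNA quality or labelling in these arrays was not tested.

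**Figure D2:**
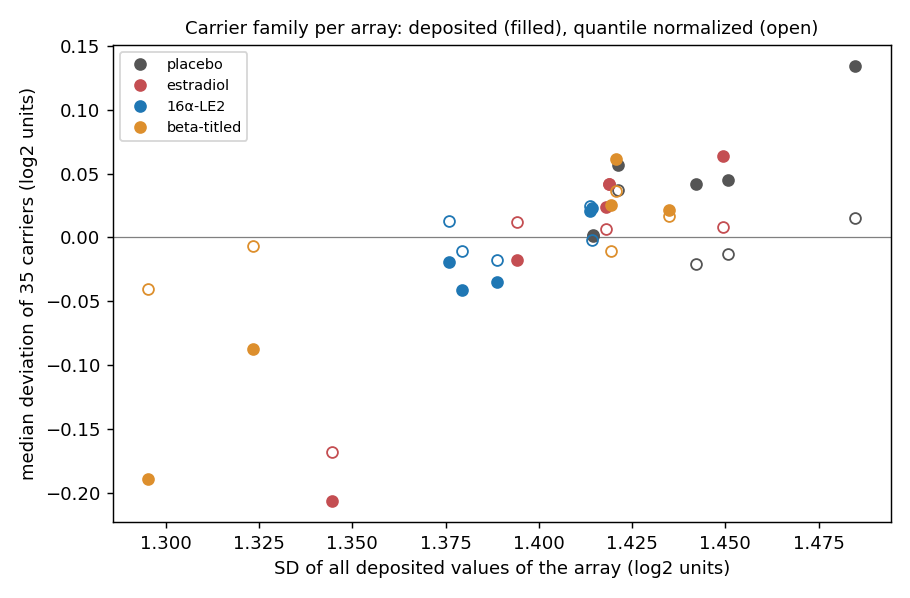
Median deviation of the 35 carriers from their gene means in each of the 20 arrays, on the log2 scale, against the standard deviation of all values of that array (filled points, deposited values; open points, after quantile normalization). E2 replicate 33 and beta-titled replicate 32 lie lowest in the deposited values, at -0.21 and -0.19, and only the first remains far below 0 after quantile normalization.

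The tissue of the samples was checked against marker genes. All 8 markers of heart muscle, among them Myh6, Myl2 and Tnnt2, passed the filter, with a mean level of 13.9 to 14.3 on every array. Of these, 0 of 8 passed the test for LE2, E2 or the beta-titled group against placebo. The mean of the atrial markers (Sln, Myl7, Myl4, Nppa) ran from 9.22 to 10.34 over the placebo arrays, 9.37 to 11.61 in E2, 8.48 to 10.66 in LE2 and 8.91 to 10.64 in the beta-titled group. Of 4 brown fat markers, Ucp1, which defines that tissue, and Elovl3 lay below the filter. Cidea and Ppargc1a, which heart muscle also expresses, passed it and differed from placebo by -0.40 and -0.41 in E2, without passing the test. The mean of the 4 ran from 8.37 to 8.53 over the placebo arrays, 8.23 to 8.40 in E2, 8.34 to 8.49 in LE2 and 8.30 to 8.45 in the beta-titled group. Of 5 skeletal muscle markers 4 lay below the filter. In LE2 against placebo all 3 erythroid markers lay higher, with a median change of 0.57, and 1 of them (Slc4a1) passed the test. All 5 fibroblast markers lay lower, with a median change of -0.31, and 1 of them (Col3a1) passed. The mean of the erythroid markers was 7.98 to 8.88 in LE2 and 7.57 to 8.01 in placebo, and that of the fibroblast markers 9.56 to 9.81 and 9.88 to 10.43. All 5 endothelial markers (Pecam1, Cdh5, Tek, Kdr, Cldn5) lay below placebo in LE2, with a median change of -0.32, as did all 5 in the beta-titled group (median -0.20) and 4 of 5 in E2 (median -0.12), and 0 of 5 passed in each. Their mean level was 9.30 to 9.85 over the placebo arrays, 8.95 to 9.44 in LE2, 9.21 to 9.69 in E2 and 9.24 to 9.62 in the beta-titled group. The part of these cell types in the carrier values was not tested. In whole ventricle, fewer cells of a type and less RNA per cell cannot be told apart.

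Estrogen receptors bind DNA at paired copies of the sequence AGGTCA, and other nuclear receptors that act in heart muscle bind single copies. RefSeq start sites (GRCm38.p6) gave 43 promoter windows, from 250 bases before to 50 after the start, for 34 of the 43 carriers. The full estrogen element GGTCANNNTGACC was in 0 of 43 carrier windows and in 0.07% of all 32851 windows. The single AGGTCA, read on either strand, was in 4 of 43 carrier windows and in 16.3% of all windows. The longer TCAAGGTCA, which contains it, was in 0 carrier windows and 0.423% of all windows. The 4 matches are shown because they are the only carrier windows with such a site, each as 30 bases on the gene's own strand with the match in capitals.
Slc25a34: tccagtcacaagTGACCTttcctccagatc
Slc25a39: agtcggcgacctTGACCTgccggccgcaag
Slc25a45: aagcagaacatgAGGTCAgaggagaagggc
Slc25a47: ggctacctcccaTGACCTctcacatgcttt
The Slc25a34 stretch lies at chr4:141623936-141623965 (minus strand), with the first base of the match 119 bases before the start. That of Slc25a39 is at chr11:102407672-102407701 (minus strand), with the match 172 bases before the start. That of Slc25a45 is at chr19:5877760-5877789 (plus strand), 50 bases before the start, and that of Slc25a47 at chr12:108850964-108850993 (plus strand), 153 bases before it. A match of these letters is not a bound site. The CCGGAA core of ETS factors, common in promoters of mitochondrial genes, was in 12 of 43 carrier windows and in 14.9% of all windows.

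The ADP/ATP carriers include Slc25a4, the main form of heart and skeletal muscle, and Slc25a5, the form of most other tissues. Slc25a4 read 14.67, 14.69, 14.55, 14.40 and 14.37 in the 5 placebo arrays, 14.52, 14.55, 14.82, 14.34 and 14.40 in E2, 14.41, 14.53, 14.51, 14.46 and 14.56 in LE2, and 14.31, 14.22, 14.28, 14.57 and 14.58 in the beta-titled group. The groups overlapped throughout, with the highest value in E2 replicate 33 and the lowest in beta-titled replicate 32. Slc25a4 differed from placebo by -0.04 ± 0.09 (log2, SE) in LE2, with a 95% interval of -0.23 to 0.14. The difference was -0.01 ± 0.09 in E2, with an interval of -0.20 to 0.18, and the limma adjusted p values were 0.946 and 0.960. Both signs turned after quantile normalization, to 0.02 and 0.01. This probe set is near the top of the scale on every array, and its within-group SD was 0.15 in the deposited values and 0.04 after quantile normalization.

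Slc25a4 has 4 probe sets, and in the deposited values all 4 read lower than placebo in LE2, E2 and the beta-titled group. For 1 of the dimmer ones the difference was larger than for the other 3, most in E2. That probe set was singled out after its values were seen. This probe set read 13.07, 13.06, 13.02, 12.84 and 13.03 in placebo and 12.72, 12.70, 12.33, 12.65 and 12.56 in E2, so that every E2 array lay below every placebo array. With 1 probe set a gene, 81 of 12082 genes and 0 of 35 carriers lay lower in E2 without overlap. The share over all probe sets was not computed. Its change in E2 was -0.41 ± 0.11, with a 95% interval of -0.63 to -0.19 and a limma adjusted p of 0.559 over all probe sets with 1 symbol. After quantile normalization the change was -0.32 ± 0.05, with a limma adjusted p of 0.108. In LE2 and the beta-titled group this probe set differed from placebo by -0.23 and -0.29, and by -0.17 and -0.13 after quantile normalization. The other 3 probe sets of the gene gave -0.10, -0.02 and -0.01 in E2. They gave -0.05, -0.05 and -0.04 in LE2, and -0.17, -0.14 and -0.14 in the beta-titled group. Across all 92 probe sets of the family, each fitted on its own, 0 passed in any of the 6 comparisons, and 15 had an unadjusted p under 0.05 in E2 against placebo, 11 in the beta-titled group and 3 in LE2. Of all probe sets with 1 symbol, 8.81%, 5.82% and 7.84% did so. Probe sets of 1 gene are assigned to the same symbol and are not independent. Whether they read the same transcript was not tested.

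Slc25a5 had the smallest p of any carrier in the beta-titled group. It read 12.51, 12.45, 12.51, 12.43 and 12.55 in placebo and 12.08, 12.05, 12.10, 12.46 and 12.33 in the beta-titled group. Beta-titled replicates 31, 32 and 33 and 36 lay below every placebo array, and replicate 35 lay among them. The change was -0.28 ± 0.09, with an interval of -0.47 to -0.10 and a limma adjusted p of 0.707. After quantile normalization it was -0.11, and without the 3 arrays of lowest spread it was -0.19. All 8 probe sets of Slc25a5 were lower in the beta-titled group, by -0.13 to -0.29. Several of them may share sequence with related genes, so they are not separate measurements. Slc25a5 read 12.26, 12.35, 12.50, 12.44 and 12.59 in LE2, above the beta-titled group by 0.22 ± 0.09 with a limma adjusted p of 0.713, and by 0.11 after quantile normalization. In E2 it read 12.27, 12.35, 12.27, 12.58 and 12.35. Slc25a31, the form of the germ line, lay below the filter, with group means of 5.74 to 5.87.

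**Figure D3:**
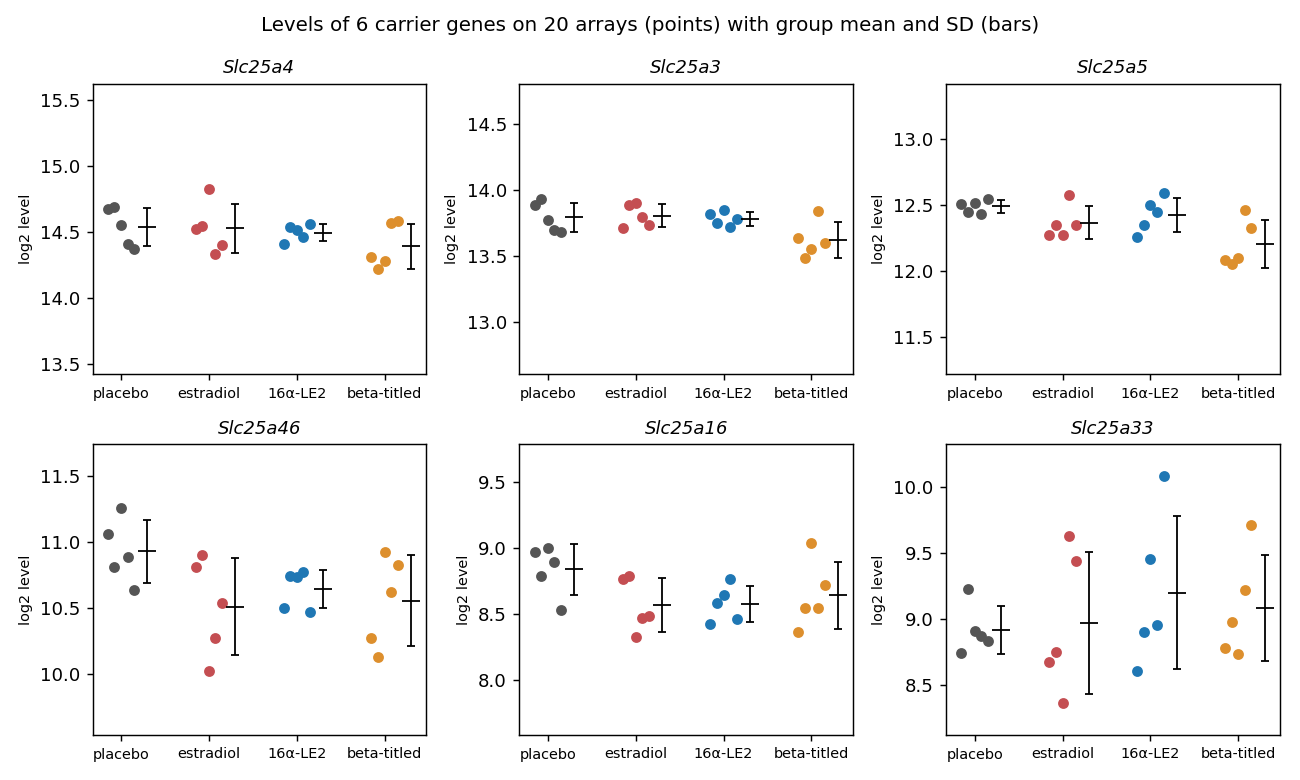
Log2 level of Slc25a4, Slc25a3, Slc25a5, Slc25a46, Slc25a16 and Slc25a33 in each of the 5 arrays of the 4 groups (points), with the group mean and SD as bars. Slc25a5 is lowest in 3 beta-titled arrays, at 12.05 to 12.10, and the groups overlap for all 6 genes.

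Slc25a3, the phosphate carrier, read 13.89, 13.93, 13.78, 13.70 and 13.69 in placebo, 13.72, 13.89, 13.91, 13.80 and 13.74 in E2, and 13.82, 13.75, 13.85, 13.72 and 13.78 in LE2. These 3 groups overlapped. Its change was -0.01 ± 0.07 in LE2, with a 95% interval of -0.16 to 0.14, and 0.01 ± 0.07 in E2, with an interval of -0.14 to 0.16 (limma adjusted p 0.986 and 0.945). The sign of both turned under other settings. The beta-titled arrays read 13.64, 13.48, 13.56, 13.84 and 13.60. The beta-titled group lay below placebo by -0.17 ± 0.07 (limma adjusted p 0.707), below LE2 (LE2 minus beta-titled 0.16 ± 0.07, limma adjusted p 0.833) and below E2 (E2 minus beta-titled 0.18 ± 0.07, limma adjusted p 0.925). After quantile normalization these differences were -0.0016 for placebo, 0.06 for LE2 and 0.07 for E2.

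Slc25a20, the carnitine/acylcarnitine carrier of fatty acid oxidation, read 11.68, 11.59, 11.62, 11.55 and 11.57 in placebo and 11.41, 11.55, 11.63, 11.36 and 11.45 in LE2. In E2 it read 11.49, 11.57, 11.04, 11.59 and 11.43, with the low value in replicate 33, and in the beta-titled group 11.20, 11.10, 11.51, 11.64 and 11.66, with the low pair in replicates 31 and 32. The lowest values of the gene are thus in the 3 arrays of lowest spread. The change was -0.12 ± 0.12 in LE2, with a 95% interval of -0.36 to 0.12, and -0.17 ± 0.12 in E2, with an interval of -0.41 to 0.06 (limma adjusted p 0.847 and 0.512). After quantile normalization the changes were -0.01 and -0.03, and without E2 replicate 33 the change in E2 was -0.08.

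The carriers of di- and tricarboxylates are Slc25a1 (citrate, the source of cytosolic acetyl units), Slc25a10 (dicarboxylates such as malate and succinate) and Slc25a11 (oxoglutarate, a partner in the malate-aspartate shuttle). Their group means were 7.53 to 7.64, 7.73 to 7.82 and 12.02 to 12.13. Of the 3, 0 passed against placebo, with changes from -0.09 to 0.02 in LE2, -0.07 to 0.05 in E2 and -0.10 to -0.0046 in the beta-titled group. The smallest unadjusted p among these was 0.328 in limma.

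The aspartate and glutamate carriers are Slc25a12 and Slc25a13, the calcium-regulated aspartate/glutamate exchangers of the malate-aspartate shuttle, and Slc25a22 and Slc25a18, which carry glutamate. The first 3 passed the filter and Slc25a18 did not. Slc25a12 had group means of 10.97 to 11.14, and Slc25a13 of 9.34 to 9.47. Changes from placebo were -0.05 to -0.02 in LE2, -0.09 to 0.08 in E2 and -0.17 to 0.01 in the beta-titled group, and 0 of 3 passed in each. After quantile normalization all 3 lay above placebo in LE2 and in the beta-titled group, with medians of 0.05 and 0.06.

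The carriers of other amino acids and of glutathione are 7 genes that all passed the filter. Slc25a15 and Slc25a2 carry ornithine for the urea cycle, Slc25a29 basic amino acids, Slc25a38 glycine for haem synthesis, Slc25a39 and Slc25a40 glutathione, and Slc25a44 branched-chain amino acids. Against placebo 3 were higher and 4 lower in LE2, 4 and 3 in E2, and 1 and 6 in the beta-titled group, and 0 of 7 passed in each. After quantile normalization 5 were higher and 2 lower in LE2, 4 and 3 in E2, and 4 and 3 in the beta-titled group. Slc25a39 had the highest change of the group in LE2 and in E2, 0.18 and 0.20, with group means ± SD of 11.34 ± 0.23 in placebo, 11.53 ± 0.13 in LE2 and 11.54 ± 0.23 in E2. Its levels overlapped between the 3 groups. After quantile normalization these changes were larger, 0.31 ± 0.14 in LE2 and 0.36 ± 0.14 in E2, with limma adjusted p values of 0.586 and 0.547. In the beta-titled group the change of Slc25a39 was -0.01, and 0.18 after quantile normalization. In the deposited values, its other probe sets gave 0.02 to 0.18 in LE2, 0.09 to 0.17 in E2 and -0.14 to 0.10 in the beta-titled group.

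Slc25a44, Slc25a29 and Slc25a15 were among the carriers of smallest p in the comparisons that leave out placebo. Slc25a44 read 7.85, 7.93, 7.91, 7.84 and 7.78 in the beta-titled group, 7.71, 7.69, 7.67, 7.80 and 7.74 in LE2 and 7.87, 7.62, 7.70, 7.78 and 7.59 in E2. LE2 minus beta-titled was -0.14 ± 0.07 (limma adjusted p 0.928) and E2 minus beta-titled was -0.15 ± 0.07 (limma adjusted p 0.925). Slc25a29 was 0.15 ± 0.07 higher in E2 than in the beta-titled group (limma adjusted p 0.925), and Slc25a15 was lower in LE2 than in E2, by -0.18 ± 0.09 (limma adjusted p 0.875). None of these differences passed, and in each case the groups overlapped. The other probe sets of Slc25a44 gave -0.02 and -0.02 for LE2 minus beta-titled and -0.0023 and 0.02 for E2 minus beta-titled. With the mean of each gene's probe sets, the 2 Slc25a44 differences were -0.06 and -0.04, that of Slc25a29 was 0.07 and that of Slc25a15 was -0.08. Without E2 replicate 35, Slc25a29 differed by 0.09.

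The carriers of other nucleotides and of cofactors numbered 8, all above the filter. They serve coenzyme A (Slc25a42, and Slc25a16, which has been linked to it), S-adenosylmethionine (Slc25a26), folate and FAD (Slc25a32), pyrimidine nucleotides (Slc25a33 and Slc25a36), NAD (Slc25a51) and cofactors of the peroxisome (Slc25a17). Against placebo 7 of 8 lay lower in LE2 with a median change of -0.18, 5 of 8 in E2 with a median of -0.15, and 6 of 8 in the beta-titled group with a median of -0.10. In each comparison 0 of 8 passed. The medians stand beside -0.03, -0.03 and -0.04 for all genes. After quantile normalization they were -0.07, -0.08 and -0.03, with 7, 5 and 4 of 8 lower, beside 0.01, 0.00 and 0.01 for all genes. These genes were grouped by function with results of the same arrays known.

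Slc25a16 read 8.97, 8.79, 9.01, 8.90 and 8.53 in placebo. It read 8.43, 8.59, 8.65, 8.76 and 8.46 in LE2, 8.77, 8.79, 8.33, 8.47 and 8.49 in E2, and 8.37, 8.55, 9.04, 8.55 and 8.72 in the beta-titled group. In placebo 4 of 5 arrays lay at 8.79 or above, and placebo replicate 36, at 8.53, lay within the LE2 range. The change was -0.26 ± 0.12 in LE2, with a 95% interval of -0.51 to -0.01 and a limma adjusted p of 0.535. In E2 it was -0.27 ± 0.12, with an interval of -0.52 to -0.02 and a limma adjusted p of 0.499. After quantile normalization the changes were -0.18 and -0.21, and against placebo and beta-titled arrays pooled they were -0.17 and -0.17.

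Slc25a32 was lower in LE2 by -0.18 ± 0.10, with a limma adjusted p of 0.619, and of 0.213 without E2 replicate 33. It was also lower than placebo in E2, by -0.21, and in the beta-titled group, by -0.10. Without E2 replicate 33 the change in E2 was -0.09. Its E2 values spread the most, with 6.56 in replicate 33 and 7.12 to 7.24 in the others. Slc25a26 read 8.58, 8.36, 8.42, 8.61 and 8.71 in E2 and 8.47, 8.26, 8.38, 8.25 and 8.23 in LE2. LE2 minus E2 was -0.22 ± 0.10, with a 95% interval of -0.43 to -0.0045 and a limma adjusted p of 0.875. The groups overlapped, since LE2 replicate 29 lay above 2 of the E2 arrays.

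Slc25a33 varied more within groups than any other carrier. It read 8.74, 9.23, 8.91, 8.87 and 8.83 in placebo, 8.67, 8.75, 8.36, 9.63 and 9.44 in E2, 8.60, 8.90, 9.46, 8.96 and 10.08 in LE2, and 8.78, 8.97, 8.73, 9.22 and 9.71 in the beta-titled group. The highest value, in LE2 replicate 34, was 10.08 and the lowest, in E2 replicate 33, was 8.36. Its pooled within-group SD was 0.45, larger than that of 99.4% of all genes tested. The median within-group SD was 0.16 for the 35 carriers and 0.16 for all genes. Slc25a42, the coenzyme A carrier, had an SD of 0.31, with LE2 values from 7.17 to 8.44 and placebo values from 7.44 to 8.05.

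The ATP-Mg/phosphate carriers are calcium-regulated and adjust the adenine nucleotide content of the matrix. Slc25a24 and Slc25a25 passed the filter, and Slc25a23, Slc25a41 and Slc25a54 did not. Slc25a24 read 8.46, 8.46, 8.20, 8.12 and 8.39 in placebo, and 8.13, 8.27, 7.64, 8.01 and 8.29 in E2. The lowest value was again in E2 replicate 33. The change was -0.26 ± 0.11, with a 95% interval of -0.48 to -0.04 and a limma adjusted p of 0.499. Without E2 replicate 33 it was -0.15. Slc25a24 read 7.98, 8.07, 8.22, 8.24 and 8.27 in LE2 and 8.13, 8.16, 8.34, 8.33 and 8.39 in the beta-titled group. Slc25a25 differed from placebo by -0.10 to -0.06 in the 3 groups.

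Slc25a28, one of the mitoferrins that import iron, read 9.06, 9.35, 8.56, 8.76 and 9.08 in E2 and 9.47, 9.32, 9.22, 9.23 and 9.12 in LE2. In placebo it read 8.95, 9.36, 9.33, 9.28 and 9.28, and in the beta-titled group 9.03, 8.83, 9.14, 9.47 and 9.17. LE2 minus E2 was 0.31 ± 0.13, with a 95% interval of 0.03 to 0.58 and a limma adjusted p of 0.875. E2 replicate 30 lay inside the LE2 range, and the other E2 arrays lay below it. Without E2 replicate 33 the difference was 0.21.

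The uncoupling-protein-like carriers Slc25a14 and Slc25a30 passed the filter and Slc25a27 did not. Slc25a14 had group means of 7.27 to 7.33 and Slc25a30 of 7.64 to 7.79. Both were lower than placebo in LE2 and E2, by -0.10 to -0.02, and 0 of 2 passed. In the beta-titled group the changes were -0.02 and 0.05.

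For 7 members no transported substrate is assigned here, and 5 of them passed the filter. Slc25a46 is an outer membrane protein with a part in mitochondrial fission and cristae structure. It read 11.06, 10.81, 11.26, 10.89 and 10.64 in placebo, 10.82, 10.90, 10.02, 10.27 and 10.54 in E2, 10.50, 10.74, 10.73, 10.78 and 10.47 in LE2, and 10.28, 10.13, 10.93, 10.63 and 10.83 in the beta-titled group. The placebo arrays held the 2 highest values, and E2 replicate 33 and beta-titled replicate 32 the lowest. The change in E2 was -0.42 ± 0.17, with a 95% interval of -0.77 to -0.08 and a limma adjusted p of 0.499. In the beta-titled group it was -0.37 ± 0.17, with an interval of -0.72 to -0.03 and a limma adjusted p of 0.707. After quantile normalization these were -0.30 and -0.20, and without E2 replicate 33 the change in E2 was -0.30 (limma adjusted p 0.884). Without the 3 arrays of lowest spread, the change in the beta-titled group was -0.14. Against placebo and beta-titled arrays pooled, the change in E2 was -0.23. The second probe set of the gene gave -0.39 in E2, -0.28 in LE2 and -0.34 in the beta-titled group.

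Slc25a47, a carrier known mainly from liver, was the only member whose LE2 and placebo arrays did not overlap. It read 7.05, 7.16, 7.03, 7.09 and 7.31 in placebo and 7.02, 6.89, 7.01, 7.01 and 6.99 in LE2. The gap between the groups was small, from 7.02 to 7.03. The change was -0.14 ± 0.08, with a 95% interval of -0.31 to 0.02 and a limma adjusted p of 0.618. Against placebo and beta-titled arrays pooled it was -0.08. The beta-titled arrays ran from 6.87 to 7.09. The change from placebo was -0.13 in the beta-titled group and -0.06 in E2. After quantile normalization it was -0.16 in LE2, -0.16 in the beta-titled group and -0.09 in E2. Without overlap and lower in LE2 were 1 of 35 carriers and 2.7% of all genes. The gene lies close to the filter, where a level is not separated from background by these values.

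Slc25a34 read 11.03, 11.25, 11.31, 11.24 and 10.84 in placebo, 11.06, 11.49, 10.57, 10.60 and 10.82 in E2, 11.47, 11.52, 11.02, 10.96 and 10.37 in LE2, and 10.98, 10.81, 11.24, 11.08 and 10.80 in the beta-titled group. Its within-group SD was 0.33, larger than that of 97.6% of all genes tested, and the LE2 arrays alone spanned 10.37 to 11.52. Slc25a45 and Slc25a53 differed from placebo by -0.01 to 0.09 in the 3 groups. Slc25a35 and Slc25a48 lay below the filter.

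**Figure D4:**
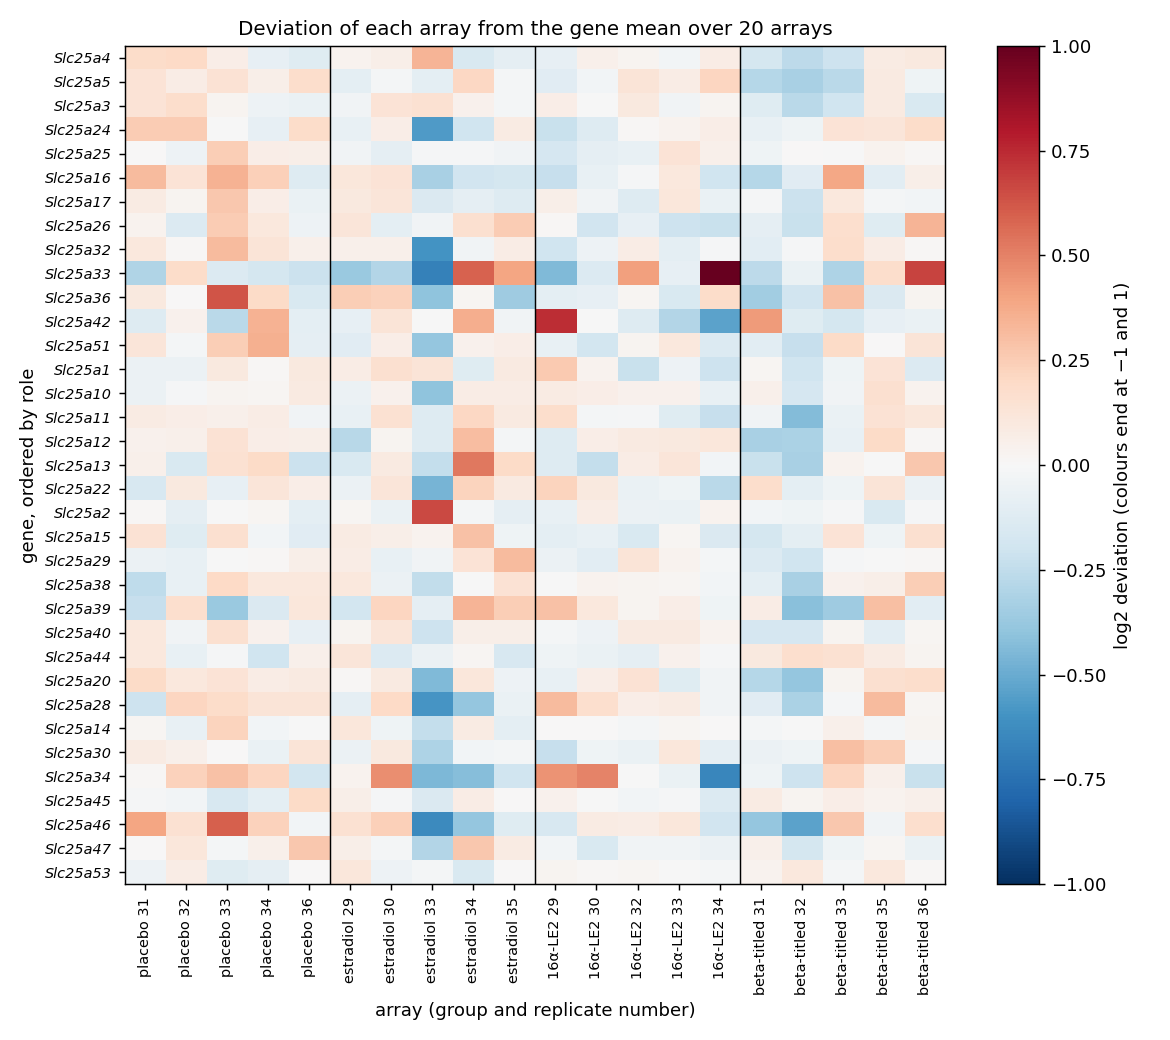
Deviation of each of the 35 carriers (rows) from its own mean over the 20 arrays (columns, by group), on the log2 scale, with the colours ending at -1 and 1. E2 replicate 33 is the lowest array for 15 carriers and beta-titled replicate 32 for 9, and the darkest cell is Slc25a33 in LE2 replicate 34, at a level of 10.08.

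The 8 members below the filter were Slc25a18, Slc25a23, Slc25a27, Slc25a31, Slc25a35, Slc25a41, Slc25a48 and Slc25a54. Fitted without a filter, 0 of 43 members passed in any of the 6 comparisons, and 30 lay below placebo in LE2, 24 in E2 and 30 in the beta-titled group. The smallest p among the 8 was that of Slc25a35 in E2 against placebo, with a change of 0.19 ± 0.07 and a limma adjusted p of 0.551.

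Relatives of the family with other symbols and the partners of the carriers gave no call either. Ucp3, an uncoupling protein of muscle, and Mtch1 and Mtch2, carrier-like proteins of the outer membrane, all lay below placebo in each of the 3 groups, and 0 of 3 passed in any of the 6 comparisons. Ucp3 differed from placebo by -0.38 ± 0.16 in LE2, -0.35 ± 0.16 in E2 and -0.14 ± 0.16 in the beta-titled group (limma adjusted p 0.484, 0.499 and 0.832). The 12 partners measured, which include the outer membrane channel Vdac3, the pyruvate carrier subunit Mpc1 and the shuttle enzyme Got1, also gave 0 calls in the 6 comparisons. Of these 9 were lower in LE2 with a median change of -0.06, 5 in E2 with a median of 0.02, and 11 in the beta-titled group with a median of -0.15.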

How the data were processed

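Total RNA (100 ng, biotin-labelled) of 20 ventricle samples was measured on Affymetrix mouse arrays, per the labels' protocols. The deposited values run from 5.07 to 15.31 and were taken as log2 levels from their range. The authors' log base, summarization software and between-array normalization were not given in the sources used here. A level is therefore not separated from background, and a difference of 1 is read as 2-fold. All 45101 probe sets and all sample columns of the table were read, and 0 columns were left unused. Symbols came from the platform annotation: 34945 probe sets had 1 symbol, 932 several and 9160 none, beside 64 controls. All 43 members matched a RefSeq gene by gene ID. No 2 arrays held identical values.

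The probe set of highest mean stood for each gene, and genes whose mean over 20 arrays exceeded 6.93 (the probe set median) were tested. All 20 arrays were fitted with limma 3.58.1 in R 4.3.3 (lmFit on group means, eBayes with trend), with Benjamini-Hochberg adjustment over 12082 genes in each comparison. The fit was tested on simulated data. Changes with SE and adjusted p are given for the 3 members of smallest p in each comparison, and for Slc25a4, Slc25a3 and Slc25a20 in LE2 and E2 against placebo. Other changes are given as ranges or as context. Members, gene lists and tests were chosen with earlier results of these data known. Alternatives were quantile normalization, median centring, no filter, the mean of probe sets, 2-group fits, array weights, a replicate block, placebo pooled with the beta-titled arrays and each array left out. A fit without the 3 arrays of lowest spread and a fit of each probe set on its own were added after seeing the data. Same-numbered arrays of different groups did not deviate together (17 pairs, correlation of deviations -0.35 to 0.51, median -0.02), so numbers were not used as pairs. Promoter windows came from RefSeq (GRCm38.p6). Precision is limited by 5 arrays a group.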

Additional observations from a re-analysis of the deposited data

Results flagged for a closer look

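Each set looked at held the 5 values of 1 member in 1 group, and the 60 sets covered only part of the 43 members. Among these 60 sets, 4 held a value far from the other 4 by Dixon's criterion, where chance alone flags about 1 in 20. The 4 are thus not a count for the whole family. Slc25a5 read 12.58 in E2 replicate 34, and the next highest E2 array read 12.35. Slc25a28 read 8.95 in placebo replicate 31, below the next at 9.28. Slc25a32 read 6.56 in E2 replicate 33, the array that stood apart from the rest, and the next lowest read 7.12. Slc25a47 read 6.89 in LE2 replicate 30, below the next at 6.99.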

How the results depend on the processing

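No carrier passed the test in any of the 27 to 29 settings run for each comparison. The lowest limma adjusted p of a carrier in any of them was 0.094, for Slc25a47 in LE2 against placebo with array weights. Of 24 named pairs of carrier and comparison, 20 kept their sign in every setting and 4 turned. Slc25a4 in LE2 against placebo turned to 0.0195 after quantile normalization and 0.0311 with placebo and beta-titled arrays pooled, and ran from -0.0831 to -0.0039 with 1 array left out. Slc25a3 in LE2 turned to 0.0571 after quantile normalization, 0.0097 with the mean of its probe sets and 0.0745 with pooled controls, and ran from -0.0393 to 0.0220 with 1 array left out. Slc25a4 in E2 turned to 0.0117 after quantile normalization, 0.0083 with the replicate block and 0.0616 with pooled controls, and ran from -0.0852 to 0.0366 with 1 array left out. Slc25a3 in E2 turned to -0.0232 after median centring, -0.0482 with array weights and -0.0126 without the 3 arrays of lowest spread, and ran from -0.0158 to 0.0455 with 1 array left out. The cause of these turns was not tested. With the title number as a replicate block, the median carrier changes were -0.10 in LE2, E2 and the beta-titled group, and 0 carriers passed, so the block changed no call. Depth has no counterpart here, and 5 arrays a group, with a widest interval of 0.51 on either side of a change (Slc25a33), limit what could be detected.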

Other observations

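The carriers that varied most within groups did so together with other genes. The values below are Pearson correlations of deviations from the group means over 20 arrays, the highest picked from 12082 genes, so they are descriptions that carry no test, and the arrays share scaling and RNA handling. For Slc25a33, a pyrimidine nucleotide carrier, they were 0.89 with Herpud1, which acts in the endoplasmic reticulum stress response, 0.88 with Timp3, an inhibitor of matrix proteases, 0.86 with Rbm24, a splicing factor of muscle, and 0.83 with both Sesn1 and Wee1. For Slc25a34 they were 0.91 with Satb1 and 0.90 with both Cirbp, a cold-inducible RNA-binding protein, and Map4k4. For Slc25a42 they were 0.91 with Tpcn1 and Iqsec1. Among pairs of carriers the highest were 0.87 for Slc25a16 with Slc25a46 and for Slc25a40 with Slc25a51, and 0.86 for Slc25a5 with Slc25a12.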
